A study of Homo sapiens with 12 samples.

Results

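The genes described here are 10 genes of bone morphogenetic protein (BMP) signalling and of the roof plate, the dorsal midline of the neural tube, among the 25718 genes in the count files. They are the ligands BMP4, BMP7 and GDF7, the pseudoreceptor BAMBI, the inhibitors of DNA binding ID1, ID2, ID3 and ID4, and the homeobox factors MSX1 and MSX2. They were picked by gene name, and each gene is represented by the RefSeq transcript with the highest mean count. In these 12 cultures, over both vectors together, ID4, BAMBI and MSX1 were lower and BMP7 was higher with doxycycline, by 22.4% at most in either vector. ID4 was called with each vector, BAMBI and BMP7 only with miR-10b, and MSX1 with neither vector alone. The log2 differences of ID4 and BMP7 between the control cells of the 2 vectors were larger than their doxycycline effects.

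All samples came from H9, a widely used human embryonic stem cell line, and were transduced at a multiplicity of infection of 50 with a lentiviral vector that carries miR-10a or miR-10b, and a GFP reporter, under doxycycline control. They were differentiated to neural cells for 14 days and patterned to midbrain by CT99021, an inhibitor of GSK3, and Shh at 200 ng/ml. The inhibitor is written CT0.8, a dose in μM within the range that the paper's methods give for midbrain. In the 3 samples labelled miR10a doxy and the 3 labelled miR10b doxy, doxycycline was present from day 11 to day 14. The 3 miR10a and 3 miR10b control samples were the same transduced cells without doxycycline, so an effect of the drug cannot be told apart from one of the miRNA. Every group had also been exposed, in the first days of differentiation, to noggin, a secreted protein that binds BMPs, and to SB431542, an inhibitor of the TGFβ and activin receptors. Nothing in the labels says that replicates came from separate transductions, so p-values measure the spread between these samples, which may be technical.

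BMPs bind pairs of kinase receptors on the cell surface, and the receptors phosphorylate SMAD proteins that enter the nucleus with SMAD4 and switch on target genes, of which the ID genes and the MSX genes are the best known. In the neural tube the roof plate and the overlying ectoderm secrete BMPs that specify dorsal cell types, while the floor plate at the opposite midline secretes SHH. ID proteins have a helix-loop-helix domain without a DNA-binding part and hold proneural bHLH factors inactive, which keeps progenitors undifferentiated.

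The sequences that bear on the vectors are the miRNA and the stretches of member 3′UTRs that pair with its seed. The mature miR-10a strand, as RefSeq lists it, is given with the seed (bases 2 to 8) in capitals.
hsa-miR-10a-5p: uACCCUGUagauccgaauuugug
The letters searched, on the transcript strand, were ACAGGGTA (8mer), ACAGGGT (7mer-m8), CAGGGTA (7mer-A1) and CAGGGT (6mer), and a site is counted once, under its longest match. The members other than ID4 have no 8mer, 7mer-m8 or 7mer-A1 in the longest annotated 3′UTR (GENCODE 44 on GRCh37, the hg19 build of the counts), and BAMBI and ID2 have 1 6mer each. Their windows are shown with the match in capitals, since these are the only seed matches among those genes.
BAMBI, 6mer, chr10:28971573-28971578, plus strand: cacactgtcacCAGGGTtatttgcatcc
ID2, 6mer, chr2:8823982-8823987, plus strand: gatcatcttccCAGGGTgttctcttact
Among 9260 tested genes whose 3′UTR is annotated, 14.3% have a 7mer-m8 and 29.4% have a 6mer, so neither kind of match is rare. A match is only a run of letters and does not show that miR-10 binds there.

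**Figure D1:**
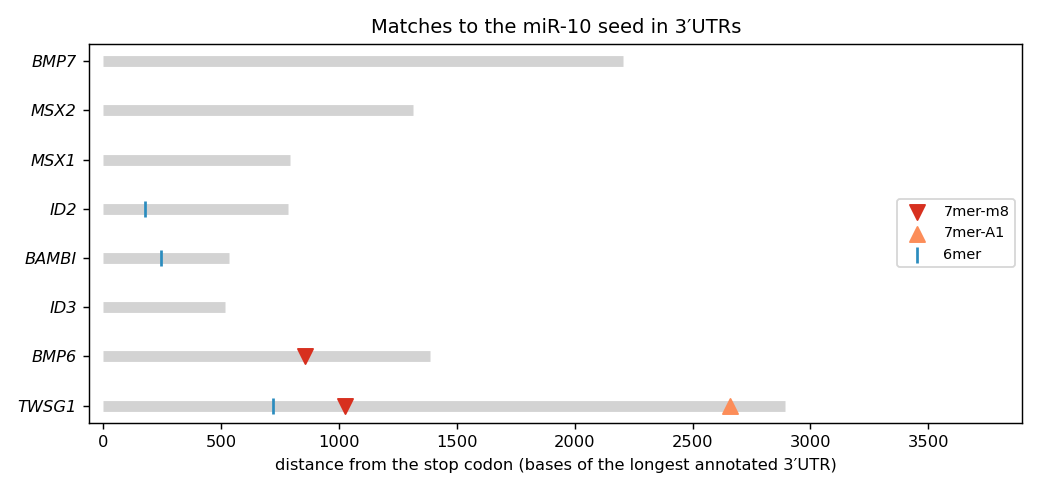
Position of each match to the miR-10 seed along the longest annotated 3′UTR of the tested members other than ID4 and of BMP6 and TWSG1 (x axis, bases from the stop codon), with grey bars for the length of the 3′UTR and symbols for the kind of match. BAMBI and ID2 have a 6mer, and BMP7, MSX1, MSX2 and ID3 have none.

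Each sample had between 10545487 and 14165426 counted reads, and within each vector the controls all had more reads than the doxycycline samples. Values are given as counts and as CPM, the count divided by the sample's total and multiplied by 1e+06, and 3 counts, the floor used here, correspond to 0.212 to 0.284 CPM. Replicate 2 of the miR-10b doxycycline group stood apart from the rest of its group, with a chi-square per degree of freedom of 3.17 and 4.11 against its fellow replicates and 1.22 to 1.93 in the other 10 pairs of replicates. MIR10A counts were 7502 to 8801 in miR-10a doxycycline samples and 8 to 17 in their controls, and MIR10B counts were 29615 to 31908 in miR-10b doxycycline samples and 39 to 56 in their controls, so the vectors were switched on as labelled.

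The counts leave 2 members without a usable measurement. Genes with 1 listed transcript are 63.0% of the genes and hold 92.8% of the counts, so reads shared between transcripts of a gene appear not to have been counted. ID1 has 2 listed transcripts, with 0 counts in every sample on one and 0 to 4 on the other. BMP4, a ligand of the roof plate and the dorsal ectoderm, has 3 listed transcripts, with 1 to 8 counts on the highest and 0 or 1 on the other two. These counts say nothing about how strongly ID1 and BMP4 were expressed.

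The other 8 members have 1 listed transcript each. GDF7 and the 2 genes with shared reads had means of 10 counts or fewer and were not tested across all genes, which left 7 tested members, each with at least 27 counts in every sample. Per kilobase of transcript ID4 was the most abundant, with 275.6 ± 49.1 CPM per kb (SD, n = 12), followed by BMP7 with 135.2 and ID3 with 99.8. BAMBI (18.0), ID2 (16.4) and MSX1 (10.6 CPM per kb) formed a middle group, and MSX2 (1.41) and GDF7 (0.325 CPM per kb) were low. ID4 and BMP7 were thus at the level of the most abundant floor plate genes, and the counted transcript of the most typical roof plate gene, GDF7, was near the floor.

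The roof plate label was checked against regional markers. GDF7, a BMP ligand made by the roof plate (chr2:20866904-20879003, GRCh37), had 2 to 16 counts in every sample. Its counted transcript is 1994 bases long, while the longest annotated 3′UTR of GDF7 is 7818 bases, so reads outside the counted part may be missed. WNT3A had 0 to 4 counts, ATOH1, a factor of dorsal hindbrain progenitors, 0 or 1, and OLIG3, a factor of dorsal progenitors, 6 to 20. In contrast SHH had 5853 to 8467 counts, NTN1 17753 to 31429 and FOXA1 4146 to 8157, all genes of the floor plate. Summed CPM over the 21 roof plate and dorsal neural tube genes in the files was 272 to 360 per sample, and over the 14 floor plate and ventral midbrain genes it was 3877 to 5938. Of these genes 14 of the 21 and 10 of the 14 have 1 listed transcript, and reads shared between transcripts of the others may be uncounted. Means of 10 counts or fewer were found for 9 of the 21 and 1 of the 14. Other genes of the roof plate and dorsal list were well above the floor, with 334 to 632 counts for WNT1, 1168 to 1996 for DRAXIN and 225 to 462 for ZIC2, and 12 of the 21 were tested. Counts of GDF7, WNT3A and ATOH1 were thus at or near 0 while part of the list was expressed. The 10 genes are described here as genes of BMP signalling and not as a sign of roof plate cells. MSX1 is also a gene of ventral midbrain progenitors.

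**Figure D2:**
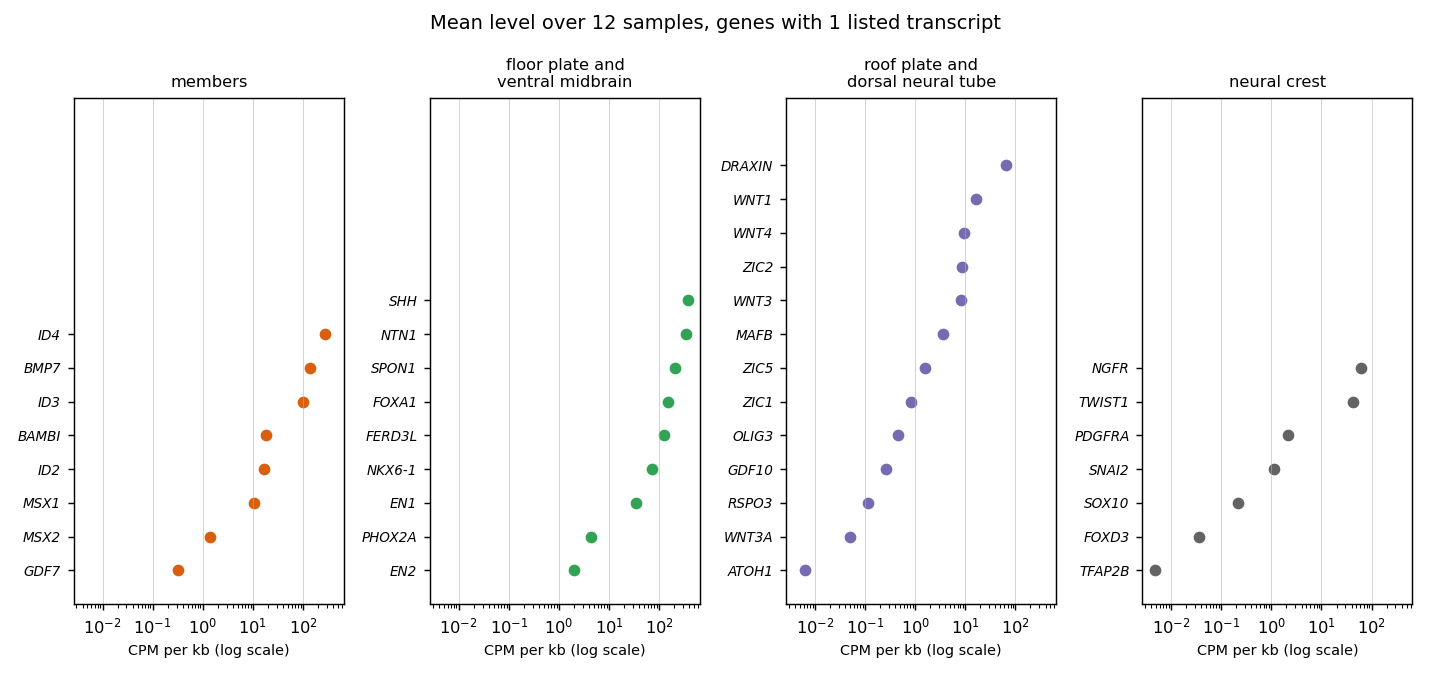
Mean CPM per kb over the 12 samples (log axis) of the 8 measurable members and of the reported floor plate, roof plate and neural crest genes with 1 listed transcript, 1 point a gene. ID4 (275.6 CPM per kb) and BMP7 (135.2) sit among the floor plate genes, and GDF7 (0.325) sits with the low roof plate genes OLIG3, WNT3A and ATOH1.

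The members called with doxycycline changed by 22.4% or less in either vector. With miR-10a, 1 of the 7 tested members passed an adjusted p of 0.05 (ID4), where 1.21% of the 11451 genes tested did and 0.742% were called lower. With miR-10b, 3 passed (BAMBI and ID4 lower, BMP7 higher), where 15.3% of genes did (7.15% lower, 8.18% higher). Over both vectors together 4 passed (BAMBI, ID4 and MSX1 lower, BMP7 higher), where 13.9% of genes did (6.22% lower, 7.67% higher). The edgeR adjusted p-values in the following are Benjamini-Hochberg adjusted values from its quasi-likelihood test over all 11451 genes. In bulk samples, fewer cells expressing a gene cannot be told apart from less RNA per cell.

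ID4 (chr6:19837601-19842428) is an ID family member of neural progenitors. In miR-10a cells it had 9578, 10206 and 9160 counts with doxycycline and 12105, 13161 and 12043 without it, which is 860.3 ± 13.3 and 955.6 ± 23.3 CPM (SD, n = 3 each). In miR-10b cells it had 13599, 12636 and 13748 counts with doxycycline and 16156, 17917 and 18509 without it, or 1123.8 ± 34.4 and 1333.7 ± 53.9 CPM (SD, n = 3 each). Within each vector the doxycycline samples were all below the controls, and the lowest miR-10b doxycycline sample was above every miR-10a control sample. ID4 fell by 9.97% with miR-10a (log2 fold change -0.15, SE 0.03, edgeR adjusted p = 0.0055) and by 15.7% with miR-10b (-0.25, SE 0.03, edgeR adjusted p = 3.0e-07). The call with miR-10a was lost in 3 of 12 fits with a sample left out, without doxycycline replicate 2 (edgeR adjusted p = 0.061) or without control replicate 1 or 3 (0.074 and 0.052), at log2 fold changes of -0.14 in each.

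ID3 (chr1:23884417-23885992) and ID2 (chr2:8818975-8824591), close relatives of ID4 and direct BMP targets in many cells, gave no call. ID3 counts were 1379 to 1580 with doxycycline and 1622 to 1843 without it in miR-10a cells, 130.3 ± 0.9 and 130.3 ± 0.5 CPM (SD, n = 3 each), which is the same level within the replicate spread. In miR-10b cells ID3 had 113.8 ± 4.8 and 120.1 ± 7.9 CPM (SD, n = 3 each), with overlapping samples. The 95% intervals of its log2 fold change were -0.09 to 0.08 with miR-10a and -0.16 to 0.01 with miR-10b (edgeR adjusted p = 1.0 and 0.26).

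ID2 counts were 260 to 293 and 279 to 317 in miR-10a cells, and 224 to 266 and 267 to 302 in miR-10b cells, with and without doxycycline. In CPM the 3 miR-10a doxycycline samples (24.3 to 24.7) were all above their controls (22.4 to 22.6), while the miR-10b groups overlapped. Its log2 fold changes were 0.12 (95% interval -0.02 to 0.27) and -0.05 (-0.20 to 0.10), with edgeR adjusted p = 0.58 and 0.71. Exons of ID2 overlap the antisense gene ID2-AS1, and the sources do not say whether reads were counted by strand.

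Because ID4 fell and ID2 and ID3 gave no call, the make-up of the measured ID transcripts was also given as a share, which does not depend on the scaling of the samples. ID4 made up 64.3 ± 0.42% (SD, n = 3) of ID2, ID3 and ID4 counts per length in miR-10a doxycycline samples and 67.0 ± 0.50% (SD, n = 3) in their controls. In miR-10b cells the shares were 73.0 ± 0.44% and 75.3 ± 1.27% (SD, n = 3 each). No doxycycline sample reached a control sample of its vector, which restates the fall of ID4 beside the other genes. A two-sided exact permutation test gave p = 0.1 with each vector, the smallest possible with 3 against 3 samples. ID1 is not in this share, since its reads were not measured.

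BAMBI (chr10:28966439-28971861) encodes a receptor-like protein without a kinase domain that blocks BMP and TGFβ receptors and is itself switched on by BMP. Its counts in miR-10a cells were 336, 356 and 288 with doxycycline and 414, 447 and 390 without it. In miR-10b cells they were 334, 308 and 335 with doxycycline and 438, 466 and 491 without it. In CPM the groups did not overlap within either vector, with 29.1 ± 1.6 against 32.0 ± 1.1 for miR-10a and 27.5 ± 0.9 against 35.4 ± 1.3 for miR-10b (SD, n = 3 each).

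With miR-10b BAMBI fell by 22.4%, the largest fall among the called members in either vector (log2 fold change -0.37, SE 0.07, edgeR adjusted p = 9.9e-05), and without replicate 2 of that doxycycline group the value was -0.34 (edgeR adjusted p = 0.00052). With miR-10a the log2 fold change was -0.14 (95% interval -0.27 to -0.01, edgeR adjusted p = 0.44). The controls of the 2 vectors (35.4 and 32.0 CPM) gave no call (95% interval of the log2 fold change 0.02 to 0.27, edgeR adjusted p = 0.13), and the doxycycline groups had overlapping samples.

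BMP7 (chr20:55743809-55841697), a ligand of the roof plate and ectoderm that is also made by many other tissues, was the only member called higher. Its counts in miR-10a cells were 5470, 5921 and 5071 with doxycycline and 5573, 6684 and 5832 without it. In miR-10b cells they were 7393, 7455 and 7855 with doxycycline and 7460, 7889 and 7885 without it. Scaled to the totals, every doxycycline sample was above every control sample of its vector, at 488.8 ± 7.3 against 462.3 ± 12.7 CPM for miR-10a and 638.3 ± 15.6 against 589.8 ± 4.7 CPM for miR-10b (SD, n = 3 each). BMP7 rose by 8.23% with miR-10b (log2 fold change 0.11, SE 0.03, edgeR adjusted p = 0.0079), and with miR-10a the log2 fold change was 0.08 (95% interval 0.02 to 0.14, edgeR adjusted p = 0.28).

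GDF7, the other measurable ligand, had 5, 2 and 4 counts with doxycycline and 4, 9 and 4 without it in miR-10a cells. In miR-10b cells it had 13, 10 and 8 counts with doxycycline and 10, 16 and 12 without it. The samples overlapped within each vector (two-sided exact permutation test, p = 0.6 for each), and a difference was not detectable at this depth.

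MSX1 (chr4:4861392-4865663), a homeobox factor downstream of BMPs in the dorsal tube, had 210, 213 and 183 counts with doxycycline and 241, 290 and 278 without it in miR-10a cells. In miR-10b cells it had 237, 237 and 241 counts with doxycycline and 285, 299 and 338 without it. The doxycycline samples were lower than all controls of their vector in CPM as well as in counts. Over both vectors together MSX1 fell by 13.6% (log2 fold change -0.21, SE 0.06, edgeR adjusted p = 0.010), and neither vector passed alone.

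MSX2 (chr5:174151585-174157899), its paralogue with a similar role, had 28 to 34 counts with doxycycline and 43 to 54 without it in miR-10a cells, and 27 to 37 and 36 to 51 in miR-10b cells. The miR-10a groups did not overlap in CPM and the miR-10b groups did. Over both vectors its log2 fold change was -0.28, with a 95% interval of -0.54 to -0.02 (edgeR adjusted p = 0.16), and that interval includes the value measured for MSX1.

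Counted by samples alone, 4 of the 7 tested members had all miR-10a doxycycline samples below all miR-10a controls (BAMBI, ID4, MSX1 and MSX2), against 7.75% of tested genes, and 2 had them all above (BMP7 and ID2), against 10.5%. With miR-10b, 3 were all below (BAMBI, ID4 and MSX1), against 12.3% of genes, and 1 was all above (BMP7), against 16.3%. All tested genes together had a median log2 fold change of 0.01 (miR-10a) and 0.02 (miR-10b), against which the falls of the members are read.

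**Figure D3:**
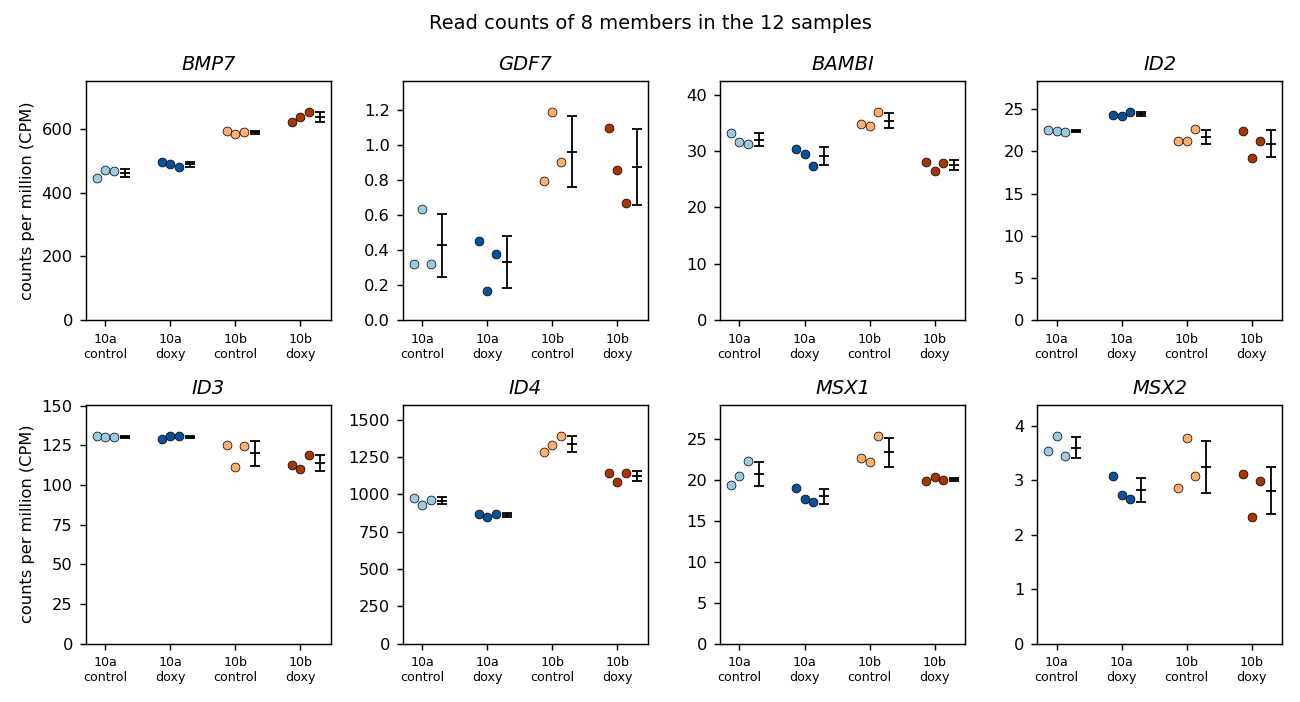
CPM of the 8 measurable members in each of the 12 samples (points), with the group mean and SD beside them (bars, n = 3), for control and doxycycline samples of both vectors, with axes that start at 0. ID4, BAMBI and MSX1 are lower and BMP7 is higher in every doxycycline sample than in every control sample of the same vector.

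**Figure D4:**
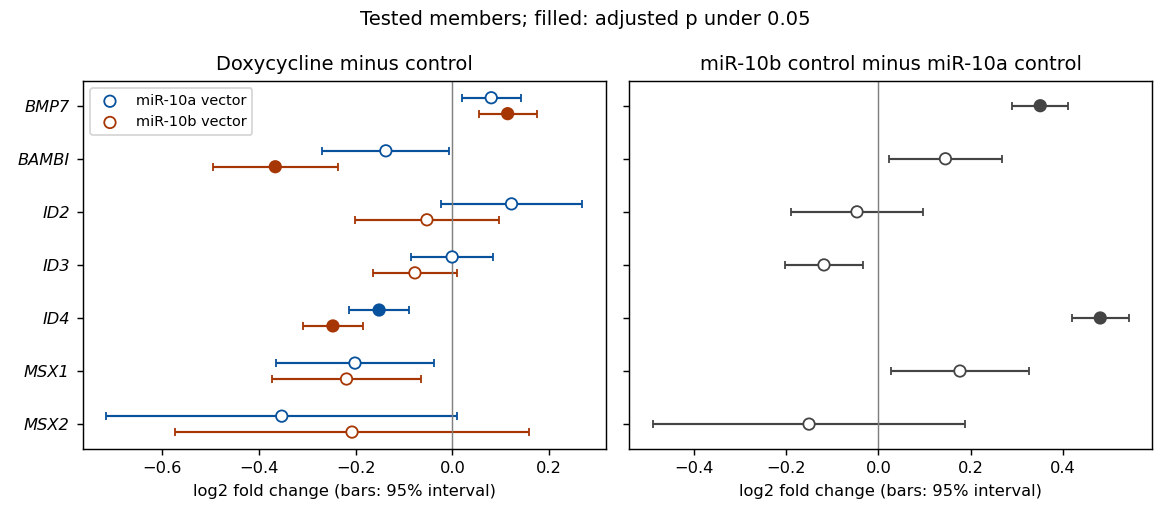
Log2 fold change of the 7 tested members with its 95% interval, on the left for doxycycline minus control with each vector and on the right for miR-10b control minus miR-10a control. Filled points have an edgeR adjusted p under 0.05, and the right panel shows ID4 at 0.48 and BMP7 at 0.35, larger than the filled points of the same genes on the left.

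The effects of the 2 vectors on the members were compared directly, since both miRNAs are named as members of the miR-10 family but only miR-10b gave several calls. By edgeR's interaction test 0 of the 7 members differed between the vectors (1.96% of all genes did), 2 of them (BAMBI and ID4) had an unadjusted p under 0.05, and DESeq2 also called 0. The share of all genes with an unadjusted p under 0.05 was not counted, here or below, so such counts have no background to be read against. The difference of the log2 fold changes, miR-10b minus miR-10a, was -0.23 for BAMBI (95% interval -0.41 to -0.04, edgeR adjusted p = 0.25) and -0.10 for ID4 (-0.18 to -0.01, edgeR adjusted p = 0.34). For MSX1 it was -0.02 (-0.24 to 0.21) and for BMP7 0.03 (-0.05 to 0.12).

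The 2 control groups, neither of which received doxycycline, differed in 2 of the 7 members, both higher in miR-10b cells, where 14.1% of all genes differed and 7.41% were higher. ID4 was 39.6% higher in miR-10b than in miR-10a controls (log2 fold change 0.48, SE 0.03, edgeR adjusted p = 1.1e-14), and BMP7 was 27.5% higher (0.35, SE 0.03, edgeR adjusted p = 3.3e-11). Neither gene had overlapping samples in the 2 control groups. For ID4 this difference has the opposite sign to the doxycycline effect, and for BMP7 the same sign.

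GDF7 had 0.960 ± 0.202 CPM in miR-10b controls and 0.426 ± 0.181 in miR-10a controls (SD, n = 3 each; exact permutation p = 0.1, the smallest possible), with all levels close to the floor. The ID4 share of the measured ID transcripts was 75.3% against 67.0%, again without overlap (n = 3 each). ID3 had a log2 fold change of -0.12 between the controls (95% interval -0.20 to -0.03, edgeR adjusted p = 0.062), which passed the threshold with the replicate number as a block (0.045), with the controls fitted alone (0.031) and in 4 of 12 fits with a sample left out (0.026 to 0.048). Without replicate 2 of the miR-10b control group it was -0.06 (edgeR adjusted p = 0.44). MSX1, MSX2, BAMBI and ID2 gave log2 fold changes between -0.15 and 0.18, with edgeR adjusted p-values of 0.13 to 0.77.

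Regional and other cell markers moved with this difference. Of 13 tested floor plate and ventral midbrain genes, 10 were higher and 1 was lower in miR-10b than in miR-10a controls, with a median log2 fold change of 0.51 against -0.01 for all tested genes. The summed CPM of that list was 5565 to 5615 in miR-10b and 3877 to 3959 in miR-10a controls. Mesenchyme markers summed to 285 to 311 CPM and 124 to 128 CPM, with 3 of 6 tested genes higher. Pluripotent stem cell markers summed to 1231 to 1259 and 1644 to 1722 CPM, with 2 of 3 tested genes lower. The part of these cells in the ID4 and BMP7 difference was not tested, and the vector cannot be told apart from the culture that carried it.

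The lists were also read for the doxycycline effect. Roof plate and dorsal sums were lower with doxycycline in miR-10a cells (320 to 336 against 344 to 360 CPM). In miR-10b cells they overlapped (272 to 302 against 292 to 309 CPM). Floor plate sums were higher with doxycycline in both vectors, at 4075 to 4154 against 3877 to 3959 CPM with miR-10a. With miR-10b they were 5765 to 5938 against 5565 to 5615 CPM. Over both vectors SPON1 was called higher and CORIN lower, and the list's median log2 fold change was 0.05, against 0.01 for all genes. SPON1 alone was at 925 to 947 against 797 to 810 CPM with miR-10a. With miR-10b SPON1 was at 1340 to 1410 against 1138 to 1198 CPM. Pluripotent markers were lower (1527 to 1572 against 1644 to 1722, and 997 to 1010 against 1231 to 1259 CPM), with LIN28A the 1 gene called of 3 tested. Neural progenitor markers were at 10418 to 10768 against 10797 to 10859 CPM with miR-10a and 11489 to 11655 against 11937 to 12071 with miR-10b. Mesenchyme sums were lower with miR-10b (231 to 248 against 285 to 311 CPM), where the collagen genes COL1A1 and COL3A1 fell by 0.60 and 0.21 on the log2 scale (edgeR adjusted p = 1.0e-08 and 0.00038), and overlapped with miR-10a (122 to 136 against 124 to 128 CPM). Neural crest sums were higher with miR-10b (305 to 342 against 260 to 289 CPM), with NGFR called higher (0.40, edgeR adjusted p = 3.3e-05), and overlapped with miR-10a (298 to 333 against 279 to 326 CPM). The median log2 fold change of the 4 tested crest genes was -0.06 with miR-10b, against 0.02 for all genes. SOX10 had 3 to 15 counts and FOXD3 0 to 2. Neuron sums were higher with miR-10a (84.2 to 88.9 against 78.0 to 81.1 CPM) and overlapped with miR-10b (86.6 to 96.7 against 82.7 to 86.9 CPM). Surface ectoderm markers summed to 7.24 to 9.61 CPM (KRT5 at 0 in every sample, CDH1 0 to 10 counts) and mesoderm markers to 6.17 to 8.68 CPM (HAND1 0 or 1, PECAM1 1 to 4 counts), with overlap within each vector. Means of 10 counts or fewer were found for 6 of 10 neural crest, 8 of 11 surface ectoderm and 7 of 10 mesoderm markers. The same held for 3 of 9 mesenchyme, 5 of 8 pluripotent stem cell and 4 of 8 neuron markers. The part of these markers in the members' changes was not tested.

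The remaining genes of the pathway were read from lists of ligands, receptors, SMAD proteins, intracellular inhibitors, secreted antagonists and responsive genes. These lists name 81 genes, of which 45 were tested. Over both vectors 6 fell and 3 rose, where 6.22% of all genes were called lower and 7.67% higher. With miR-10b 8 fell and 4 rose (7.15% and 8.18% of all genes). With miR-10a edgeR called 0 and DESeq2 called 0. An unadjusted p under 0.05 was found for 8 with edgeR, without a share of all genes to set beside it. SMAD proteins were poorly covered, since SMAD5, SMAD6, SMAD7 and SMAD9 have several transcripts each and at most 7 counts in any sample.

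Among 7 tested ligands, BMP6, a close relative of BMP7, fell with miR-10b. Its counts were 435, 507 and 519 in miR-10b controls and 252, 254 and 261 with doxycycline, and 287, 313 and 273 and 213, 228 and 219 in miR-10a cells. Doxycycline samples with miR-10b thus came down to about the counts of the miR-10a groups. The log2 fold change was -0.78 with miR-10b (SE 0.07) and -0.19 with miR-10a (SE 0.08, edgeR adjusted p = 0.32), and -0.48 over both (edgeR adjusted p = 1.1e-08). GDF11, the most abundant ligand of the list at 175 to 203 CPM over the samples, had a log2 fold change of 0.02 over both vectors (edgeR adjusted p = 0.74).

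Receptors gave opposite calls. BMPR2, the type II BMP receptor, rose over both vectors (log2 fold change 0.11, edgeR adjusted p = 0.0087) and ACVR2B, a type II receptor shared with activin, fell (-0.11, edgeR adjusted p = 0.00067), out of 8 tested. Taken by vector, both were called with miR-10b and neither with miR-10a. With miR-10a, doxycycline and control samples overlapped for BMPR2 (215 to 251 against 217 to 238 CPM) and for ACVR2B (745 to 811 against 765 to 827 CPM). The BMPR2 call over both vectors was lost without miR-10a doxycycline replicate 3 (0.08, edgeR adjusted p = 0.059). No transducer (5 tested) and no intracellular inhibitor (4 tested) was called over both vectors by edgeR or DESeq2, with 2 transducers and 0 inhibitors at an unadjusted p under 0.05. The co-activator EP300 stood at 0.07 (edgeR adjusted p = 0.052) and the SMAD repressor SKI at 0.04 (0.23).

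Of the secreted antagonists and modulators, the longest list with 14 of the 45 tested genes, 4 were lower and 1 was higher over both vectors (6.22% and 7.67% of all genes), and DESeq2 called 4 in all. The median log2 fold change was -0.08 against 0.01 for all genes. TWSG1, a protein that binds BMPs together with chordin, fell from 2881, 3220 and 3278 counts to 2028, 1814 and 2136 with miR-10b, and had 2983, 3190 and 2953 counts in controls and 2402, 2618 and 2313 with doxycycline in miR-10a cells. That is a log2 fold change of -0.50 (SE 0.04) with miR-10b and -0.10 (SE 0.04, edgeR adjusted p = 0.29) with miR-10a. NOG, which encodes noggin, fell by 0.19 on the log2 scale over both vectors (edgeR adjusted p = 0.0043).

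TLL1, a protease that cuts chordin, fell by 0.74 on the log2 scale (edgeR adjusted p = 0.00075) at 16 to 44 counts, on 1 of its 2 listed transcripts. CRIM1 fell by 0.09 (edgeR adjusted p = 0.027), a call lost in 7 of 12 fits with a sample left out. It was called with miR-10b and not with miR-10a, where samples overlapped (137 to 145 CPM with doxycycline, 140 to 144 without). FSTL1, the most abundant gene of the list, had -0.04 over both vectors (edgeR adjusted p = 0.25). Of 7 tested responsive genes HEYL, a bHLH repressor, was the only one called (0.22 over both vectors, edgeR adjusted p = 3.6e-05).

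For BMP6 and TWSG1, where the vectors differed, the seed matches are given beside the values. BMP6 has 1 7mer-m8 in its 3′UTR, and TWSG1 has 1 7mer-m8, 1 7mer-A1 and 1 6mer. They are shown because the interaction test called both genes. Only 1 seed was searched, that of the printed miR-10a strand, so a match does not separate the vectors. GDF6, a list gene that the same test also called, has no seed match of any kind in its 3′UTR.
BMP6, 7mer-m8, chr6:7881432-7881438, plus strand: cataccacgccACAGGGTtagaaccaacg
TWSG1, 7mer-m8, chr18:9400550-9400556, plus strand: gtatgaacaggACAGGGTgaaaatgctgg
TWSG1, 7mer-A1, chr18:9402186-9402192, plus strand: ttatttataatCAGGGTAgcattaaaatg
Of the other reported list genes called over both vectors, ACVR2B, which fell, has 2 7mer-m8 and 2 6mers, HEYL, which rose, has 1 7mer-m8 and 1 6mer, and SPON1, which rose, has 1 6mer. BMPR2, which rose, and NOG, TLL1, CRIM1, HES5, WNT1, ZIC1, ZIC2, TTR and CORIN, which fell, have no match of any of the 4 kinds.

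Partners of ID proteins and regional genes were read in the same way. Among 7 tested bHLH partners and targets of ID, 2 fell over both vectors. HES5, a Notch target, had a log2 fold change of -0.14 (edgeR adjusted p = 0.011), a call lost in 2 of 12 fits with a sample left out, and HES1 had -0.06 (0.071). Of 12 tested roof plate and dorsal genes, WNT1 (-0.55, edgeR adjusted p = 2.0e-11), ZIC1 (-0.75, 1.2e-05) and ZIC2 (-0.20, 0.012) fell, the last 2 being zinc finger factors of the dorsal tube. DRAXIN, the most abundant of that list, had 0.02 (0.78).

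TTR fell by 0.37 on the log2 scale (edgeR adjusted p = 0.021) as 1 of 3 tested choroid plexus genes, and lost the call in 3 of 12 fits with a sample left out, while SLC4A5 had -0.01 (0.96). Of 13 tested floor plate genes SPON1 rose (0.23, edgeR adjusted p = 1.9e-10) and CORIN fell (-0.53, 1.2e-05), the latter on 1 of 3 listed transcripts, and NTN1 had 0.04 (0.20). Over all pathway and regional lists together 13 of 79 tested genes fell and 5 rose, beside 6.22% and 7.67% of all tested genes. With miR-10a alone WNT1 was the only one called lower and SPON1 the only one called higher, where 1.21% of all genes passed. With miR-10b alone 16 fell and 6 rose (7.15% and 8.18% of all genes).

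**Figure D5:**
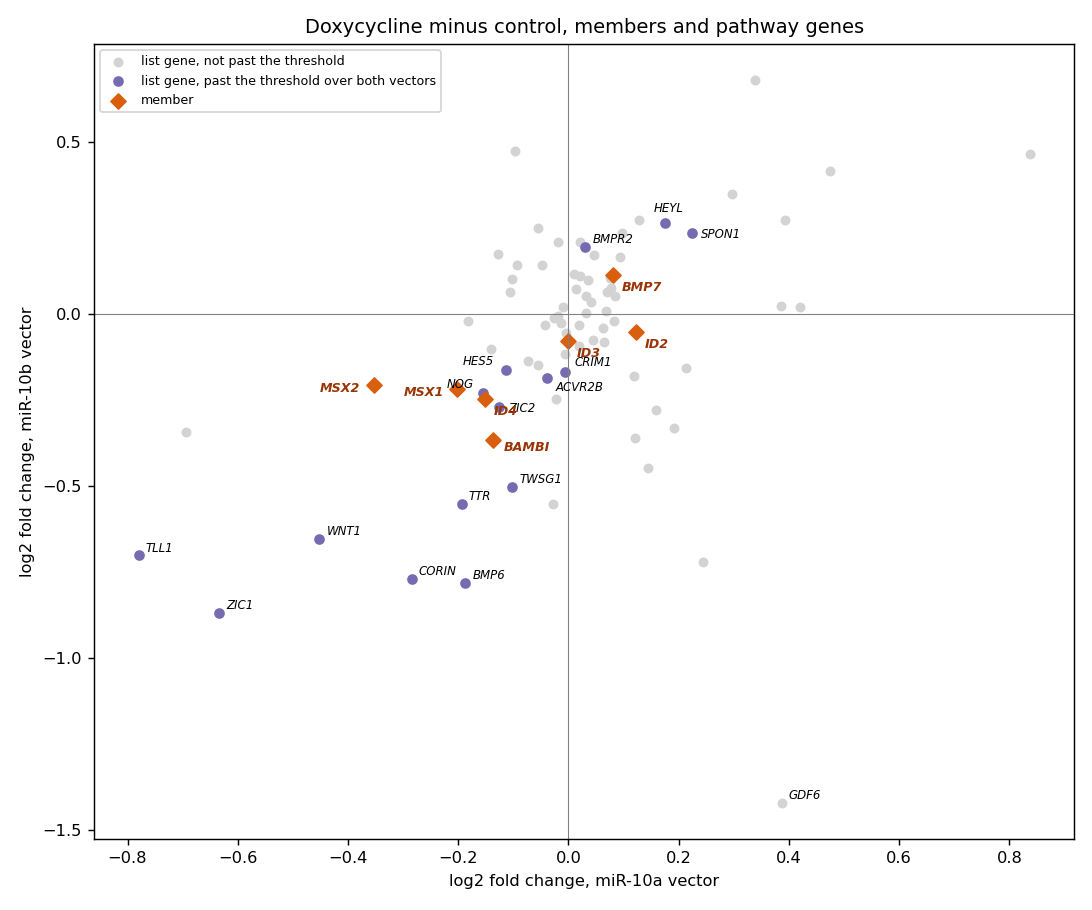
Log2 fold change of doxycycline minus control with miR-10a (x axis) and miR-10b (y axis) for the 7 tested members (diamonds) and the tested list genes that are reported, coloured where the edgeR adjusted p over both vectors is under 0.05. BAMBI, ID4 and MSX1 lie in the lower left with BMP6, TWSG1 and NOG, BMP7 lies in the upper right with HEYL, and GDF6 lies alone at the bottom right.

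The genes whose levels followed each member most closely were listed as a description, over the same 12 libraries and the 6975 genes with a mean above 100 counts, so the difference between the vectors enters every value. ID4 was followed by SAMD5 (Pearson r = 0.989), IRS1 (0.979) and the floor plate gene CORIN (0.977). BMP7 was followed by PLCL1 (0.992), NOTCH2 (0.991) and IRF2BPL (0.990). BAMBI was followed by ANXA5 (0.976), PGK1 (0.970) and MPPED1 (0.951), and ID3 by ZNF18 (0.959), PTX3 (0.936) and RFWD3 (0.921). For ID2 they were RPL22L1 (0.927), AGPAT6 (0.923) and PPP1R15B (0.902), and for MSX1, at the lowest r, LGI1 (0.899), ELL2 (0.897) and PDIA3P1 (0.897). Between members the highest value was 0.814 for ID4 and MSX1 and the lowest -0.831 for BMP7 and ID3, so the members did not move as 1 block.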

How the data were processed

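RNA from 12 cultures was sequenced as single-end reads. Reads were mapped to hg19 and assigned to RefSeq transcripts by the authors, who deposited the raw counts for each transcript, without normalization, as 1 file a sample. The submitters' processing notes name STAR, featureCounts and Subread, without versions or settings, and hg19. The paper's methods name the RNeasy Mini and NuGEN Ovation kits, and the labels name miRNeasy and Illumina kits. Each file held 51799 rows for 48101 transcripts, and 3698 repeated rows were dropped. A gene was represented by its transcript with the highest mean count.

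Counts were tested with edgeR 4.0.16 under R 4.3.3, by its quasi-likelihood test with Benjamini-Hochberg adjustment and a threshold of 0.05, on the 11451 genes with a mean above 10 counts. The model had 4 group means, and library size was the total count. SE is the absolute log2 fold change over the square root of F, and 95% intervals use the normal quantile. Two-sided exact permutation tests compared 3 against 3 samples. Alternatives were TMM factors, DESeq2 1.42.0, no filter or a mean above 50 counts, summed transcripts, thinned counts, a replicate block, vectors or controls fitted alone, and each sample left out. The code was tested on simulated counts. Pandas 2.3.3 and Python 3.11.15 were used for the rest.

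The members, gene lists and tests were chosen with earlier results of these data known. Named genes were all members, the list genes called over both vectors (at most 12 a direction) and the most abundant of each list, and the 3 genes most alike each member with a mean above 100 counts, by Pearson r of log2(CPM + 0.5). CRIM1, GDF6, LIN28A and the other marker genes named fall outside this rule and were named after their values were seen. Some list genes, counted in the totals, and the seed matches of ID4 are not reported here.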

Additional observations from a re-analysis of the deposited data

Results flagged for a closer look

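The interaction test of edgeR, which asks whether the doxycycline effect differs between the vectors, picked out 3 of the 79 tested pathway genes and 0 of the 7 members, of which 2 had an unadjusted p under 0.05 and 0 were called by DESeq2. DESeq2 called 2 of the 79 pathway genes. BMP6 had a difference (miR-10b effect minus miR-10a effect) of -0.59 on the log2 scale (edgeR adjusted p = 0.00065) and TWSG1 of -0.40 (edgeR adjusted p = 3.0e-05). GDF6, a BMP ligand with 11 to 49 counts, had a difference of -1.81 (edgeR adjusted p = 0.0038), with 46, 49 and 45 counts in miR-10b controls and 19, 15 and 13 with doxycycline, and 17, 24 and 21 and 23, 36 and 11 in miR-10a cells. Leaving out miR-10a doxycycline replicate 2 its difference was -1.41 (edgeR adjusted p = 0.068). In all 3 genes the direction was the same in each fit with a sample left out. Among the cell markers, COL1A1 (-0.65, edgeR adjusted p = 9.7e-05), COL3A1 (-0.38, edgeR adjusted p = 0.0018) and LIN28A (-0.19, edgeR adjusted p = 0.0041) also differed between the vectors by the same test.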

How the results depend on the processing

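The number of members called stayed within 1.5 times the reported one under TMM factors, DESeq2, other filters, summed transcripts, thinned counts and separate fits. Leaving out each sample gave 0 to 1 members called with miR-10a (ID4, lost in 3 fits), 3 to 4 with miR-10b, 4 over both vectors, 0 for the difference and 2 to 3 between the controls, and 13 to 23 of the pathway genes. Of 681 values of single members under all alternatives, 662 kept direction and side of the threshold, 3 lost and 9 gained the call and 7 reversed. MSX1 with miR-10b passed with TMM factors (-0.24, edgeR adjusted p = 0.037), with a mean above 50 counts (0.044) and without replicate 2 of the miR-10b control (0.0495). Reversals concerned values near 0: ID3 with miR-10a under thinned counts (0.022), and with samples left out ID3 with miR-10a (-0.0037 to 0.0051), ID2 with miR-10b (-0.10 to 0.0043), the MSX1 difference between vectors (-0.071 to 0.046), and over both vectors GDF11 (-0.0016 to 0.038), DRAXIN (-0.025 to 0.054) and SLC4A5 (-0.052 to 0.018). EP300 and HES1 passed over both vectors under some alternatives. The cause of these moves was not tested. Replicate numbers did not pair the samples (r of same-numbered deviations -0.03 to 0.01), and a fit blocked on the replicate number called 1, 3, 4, 0 and 3 members (miR-10a, miR-10b, both, difference, controls) and 19 pathway genes. Low counts limit what can be said of ID1, BMP4, GDF7 and MSX2.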
